A study of Mus musculus with 6 samples.

Results

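The Toll-like receptor (TLR) and lipopolysaccharide (LPS) sensing genes of mouse splenic B-cells were described across 6 RNA-seq libraries. They were taken by name from the deposited table of counts per gene, as 9 receptor and co-receptor genes (Tlr4, Ly96, Cd14, Cd180, Ly86, Tlr1, Tlr2, Tlr7 and Tlr9) and the adaptor gene Myd88. All 10 were found among 46963 gene names, and 10 of 10 were among the 14600 genes with enough counts to be tested. The rule goes by name and uses no measured value.

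The libraries came from CD43-depleted splenic B-cells of 3 genotypes on the same inbred background. The wt mice carried an intact immunoglobulin heavy chain (IgH) locus. The Eμ-deficient mice lacked the Eμ enhancer with its flanking matrix attachment regions, and the 3′RR-deficient mice lacked the 3′ regulatory region downstream of the constant genes. Both deletions are in the germline and so were present in every cell of the animal. Resting B-cells received no LPS and stimulated B-cells received 5 μg per ml LPS for 2 days. The labels give the same 2 days of culture for resting cells, whereas the study's methods describe resting cells taken before stimulation, so that culture and LPS cannot be told apart where the latter holds. The protocol text of the labels also gives the LPS concentration in mg in place of μg. Each library pooled 2 mice. The study's methods describe adult animals of both sexes. They also describe more than 1 pool of mice per genotype. There was 1 library for each genotype and state here, and no difference between genotypes within a state has a replicate check.

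Genes received between 9111974 and 21998587 counts per library, and a level is expressed in CPM, the counts divided by library sizes from the TMM method of edgeR. The markers of B-cells (Ms4a1, Cd79a, Cd79b, Cd22 and Pax5) summed to between 1392 and 2401 CPM in the 6 libraries. The 9 macrophage and monocyte markers summed to 199.6, 536.4 and 215.3 CPM in resting wt, Eμ-deficient and 3′RR-deficient B-cells and to 25.6, 39.9 and 34.0 CPM after LPS. The 4 plasmablast markers summed highest in both Eμ-deficient libraries, at 1866 CPM resting and 1223 CPM after LPS against 505.5 CPM or less in the others. Jchain alone gave 1734 and 802.9 CPM of these sums. Within each state all 4 markers were highest in the Eμ-deficient library. In resting Eμ-deficient B-cells Prdm1 (20.3 CPM) and Xbp1 (91.3 CPM) were below their levels in LPS-stimulated wt B-cells (71.5 and 140.9 CPM). The LPS-stimulated wt and 3′RR-deficient libraries each stood apart in composition, and the Eμ-deficient libraries differed from wt in both states. Over 35 spike-in RNAs, log2 ratios of LPS over resting had an SD of 0.784 in wt, 0.633 in 3′RR-deficient and 0.135 in Eμ-deficient B-cells, where counting error gives 0.0733 or less. Gene ratios of LPS over resting fell with GC content in wt (Spearman's rho = -0.26 across 13957 genes, a description) and rose with it in 3′RR-deficient B-cells (rho = 0.15). The ratio of both LPS-stimulated libraries, 3′RR-deficient over wt, had a spike-in SD of 1.27 and a rho of 0.59. For Eμ-deficient over wt the SD was 0.477 resting and 0.440 after LPS, with a rho of -0.38 and 0.25. For resting 3′RR-deficient over wt the SD was 0.157 and rho was -0.16. Ratios are therefore also given with the trend on GC content removed.

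TLRs are receptors of the innate immune system that bind microbial molecules through leucine-rich repeats and signal through a cytoplasmic TIR domain. LPS is handed by CD14 to the TLR4 receptor and its partner MD-2 (the product of Ly96). B-cells in addition carry RP105 (Cd180) with its partner MD-1 (Ly86), a complex that resembles TLR4 with MD-2 but has no TIR domain. TLR2 with TLR1 binds bacterial lipopeptides at the cell surface, TLR7 and TLR9 bind single-stranded RNA and unmethylated CpG DNA in endosomes, and MYD88 couples these TLRs to NF-κB. Mouse B-cells divide and secrete antibody when their TLRs are engaged, which is why LPS is used as a polyclonal B-cell activator.

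The 250 bases before the start site are shown for the members whose level fell with LPS, as far as the RefSeq promoter table (GRCm38.p6) holds them, to set the sequence context of these genes beside their levels. Capitals mark the motifs found.
Tlr9, chr9:106222348-106222597 (+): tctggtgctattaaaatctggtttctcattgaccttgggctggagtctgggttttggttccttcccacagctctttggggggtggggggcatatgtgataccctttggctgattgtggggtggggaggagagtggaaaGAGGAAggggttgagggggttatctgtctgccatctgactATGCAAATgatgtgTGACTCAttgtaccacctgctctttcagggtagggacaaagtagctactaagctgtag
Cd180, chr13:102693308-102693557 (+): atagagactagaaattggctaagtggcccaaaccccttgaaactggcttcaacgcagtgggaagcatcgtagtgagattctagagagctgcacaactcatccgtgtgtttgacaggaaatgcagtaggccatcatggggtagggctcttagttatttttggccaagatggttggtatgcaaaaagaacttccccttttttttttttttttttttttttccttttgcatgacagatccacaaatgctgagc
Tlr1, chr5:64933559-64933808 (-): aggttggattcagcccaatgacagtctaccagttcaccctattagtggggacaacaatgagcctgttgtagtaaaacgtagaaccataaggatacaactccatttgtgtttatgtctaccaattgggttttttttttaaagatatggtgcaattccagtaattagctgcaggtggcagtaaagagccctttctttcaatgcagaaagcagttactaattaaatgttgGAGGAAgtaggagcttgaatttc
The table held 6 of the 10 genes (Cd180, Ly86, Tlr1, Tlr2, Tlr9 and Myd88). The search covered both strands for GAGGAA (a PU.1 core), ATGCAAAT (the octamer bound by OCT factors), TGANTCA (AP-1) and the κB consensus. The Tlr9 sequence held GAGGAA, ATGCAAAT and TGACTCA, which begin 112, 72 and 58 bases before the start site, and none overlaps another. Of 32851 promoters of this length, 23.2% held GAGGAA, 1.60% held ATGCAAAT and 6.75% held TGANTCA. The Tlr1 sequence held GAGGAA 23 bases before the start, and the Cd180 sequence held none of the 4 motifs. The table holds 2 start sites for each of these genes, and neither the second Tlr1 start (chr5:64932700-64932949) nor the other Cd180 start had any of the 4 before it. Tlr2 held the κB consensus, which 7.25% of promoters hold. These matches describe the sequence only.

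The genes lie on 8 chromosomes of GRCm38 (GENCODE M21), and all are protein coding. The gene models are Tlr4 at chr4:66827584-66930284 (+), Ly96 at chr1:16688051-16709611 (+), Cd14 at chr18:36725067-36726798 (-), Cd180 at chr13:102693558-102739629 (+), Ly86 at chr13:37345208-37419036 (+), Tlr1 at chr5:64924679-64933563 (-), Tlr2 at chr3:83836272-83841767 (-), Tlr7 at chrX:167304929-167330558 (-), Tlr9 at chr9:106222598-106226883 (+) and Myd88 at chr9:119335934-119341411 (-). Exons of Cd180 overlap Mast4 and exons of Myd88 overlap Acaa1a, in both cases on the opposite strand, and the counting used strand. Tlr1 and its paralog Tlr6 resemble each other closely. The counting kept the primary alignment of multi-mapping reads, so that reads of either gene may be counted for the other.

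The first question was how these genes stood relative to each other in resting B-cells, for which CPM were divided by the length of the annotated exons. Cd180 had the highest level per kb in each of the 3 resting libraries, with a mean of 26.7 ± 4.6 CPM per kb (SD, n = 3 genotypes). Tlr1 followed at 20.4 ± 4.2, Ly86 at 15.0 ± 1.1 and Tlr9 at 14.7 ± 3.9 CPM per kb. Tlr7 stood at 9.19 ± 2.75 and Myd88 at 7.04 ± 0.33 CPM per kb. The genes of the LPS receptor proper were lower, with Ly96 at 4.02 ± 3.01, Tlr4 at 2.30 ± 0.92 and Cd14 at 1.64 ± 0.59 CPM per kb, and Tlr2 stood beside them at 1.86 ± 0.67. The ranges of neighbouring genes in this order overlapped in each case, whereas those of Cd180 and Ly86, or of Cd180 and Tlr4, did not. After LPS, Cd180 (12.3 ± 1.5), Ly86 (12.3 ± 1.4), Tlr1 (11.1 ± 2.9), Tlr7 (10.04 ± 8.14) and Myd88 (9.98 ± 0.99 CPM per kb) stood close together. Tlr9 had 6.90 ± 3.03, Ly96 3.09 ± 1.57, Tlr4 2.00 ± 0.61, Tlr2 1.16 ± 0.55 and Cd14 0.442 ± 0.695 CPM per kb, and neighbours in this order overlapped too. By this length, the gene with the highest level per kb after LPS differed between libraries, being Tlr1 in wt, Tlr7 in Eμ-deficient and Ly86 in 3′RR-deficient B-cells. The length joins all annotated exons of a gene, which gives 4509 bases for Cd180 against 2650 in its longest transcript. Tlr7 has 4082 against 3897, Tlr1 3346 against 3025 and Ly86 3632 against 2684 bases. A shorter length for Cd180 raises its place, so the order after LPS, and how close these genes stood, depends on the length chosen.

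**Figure D1:**
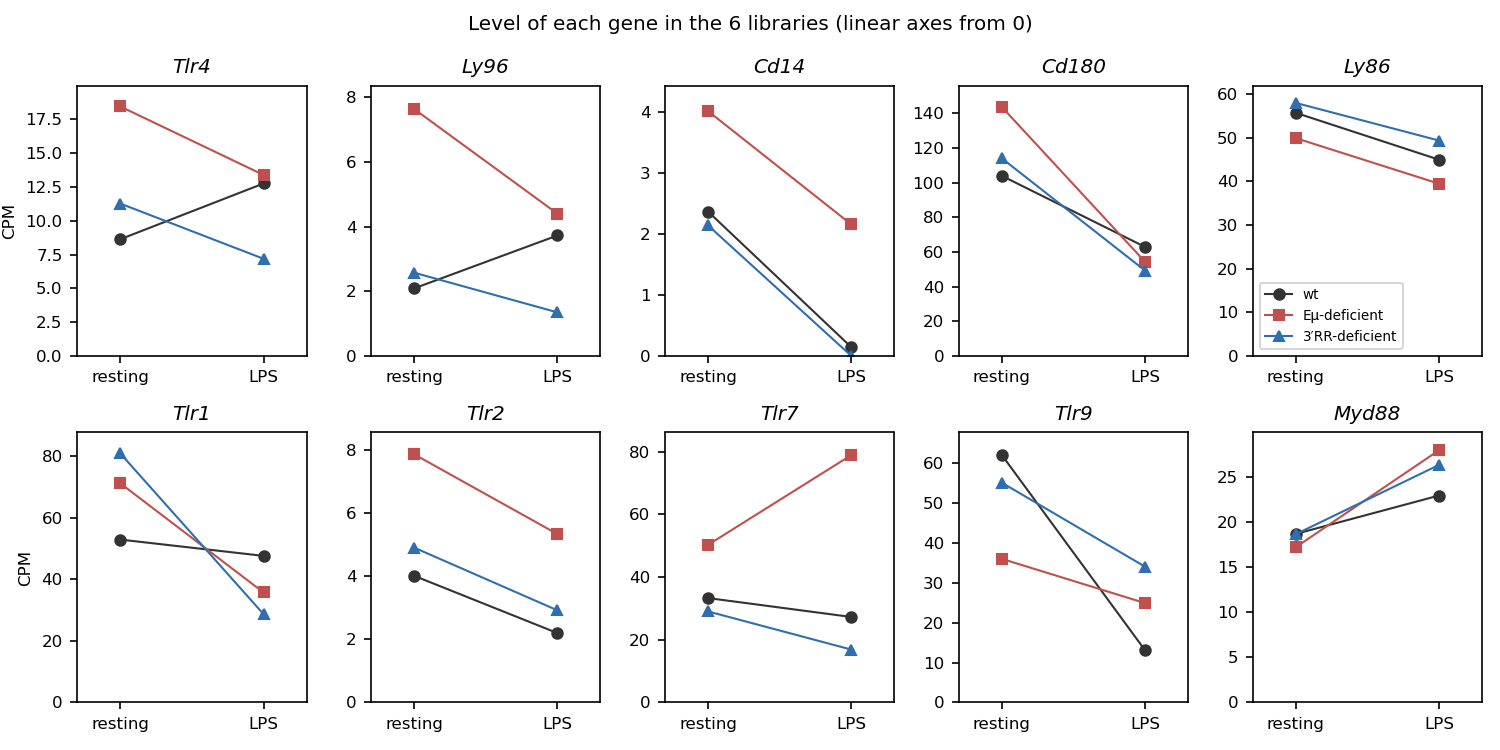
Level of each gene in CPM (linear axis from 0) in the resting and the LPS-stimulated library of each genotype, with a line joining the 2 libraries of a genotype. Cd180, Ly86, Tlr1 and Tlr9 lie lower in all 3 LPS-stimulated than in all 3 resting libraries, Myd88 lies higher, and Tlr7 is highest in the LPS-stimulated Eμ-deficient library at 78.9 CPM.

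The next question was how the genes changed from resting to LPS-stimulated B-cells. Over the 3 genotypes, 4 of the 10 genes fell (Cd14, Cd180, Tlr1 and Tlr9), 0 rose, and 6 did not pass the test. The test was edgeR's quasi-likelihood test with genotype and state as additive terms and Benjamini-Hochberg adjustment over the 14600 genes, with a threshold of 0.05. Of all genes tested, 40.8% were called, 21.1% lower and 19.7% higher, so that the share of these genes called is close to that of all genes. The median log2 fold change of the 10 genes was -0.51 against -0.07 for all genes. The residual of this fit is the departure from a like response in the 3 genotypes, not the spread between mice. All levels of 4 genes were lower after LPS than in any resting library (Cd180, Ly86, Tlr1 and Tlr9), as were those of 27.3% of all genes, and all levels of Myd88 were higher, as were those of 25% of all genes.

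Among the genes of the LPS receptor, Tlr4 itself did not pass the test. It had 8.64 CPM in wt, 18.5 in Eμ-deficient and 11.3 in 3′RR-deficient resting B-cells, and 12.8, 13.4 and 7.19 CPM after LPS. The groups overlapped, since the wt level was higher after LPS and both mutant levels were lower. The fitted log2 fold change was -0.18 ± 0.30 (SE, adjusted p = 0.670, edgeR). Ly96, whose product MD-2 forms the LPS binding pocket, followed the same pattern. It had 2.09, 7.64 and 2.58 CPM in resting and 3.73, 4.40 and 1.35 CPM in LPS-stimulated wt, Eμ-deficient and 3′RR-deficient B-cells. The groups overlapped again, and the log2 fold change was -0.27 ± 0.42 (adjusted p = 0.642, edgeR). These levels rest on 12 to 101 counts per library.

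Cd14, the surface protein that delivers LPS to TLR4 and a gene of monocytes and macrophages, fell. It had 2.37, 4.01 and 2.14 CPM in resting wt, Eμ-deficient and 3′RR-deficient B-cells, from 43, 53 and 44 counts. After LPS it had 0.143 CPM in wt (3 counts), 2.15 in Eμ-deficient (23 counts) and 0 in 3′RR-deficient B-cells, where 3 counts would be 0.337 CPM. The Eμ-deficient library after LPS was thus just above the lowest resting one, whereas the other 2 were at or under 3 counts. The fitted log2 fold change was -2.60 ± 0.76 (adjusted p = 0.0235, edgeR). Between single libraries, the wt ratio was 16.5-fold lower (log2 -4.04, 95% counting interval -6.38 to -2.40), and the Eμ-deficient log2 ratio was -0.90. The 3′RR-deficient ratio was 6.35-fold lower with its 0 counts set to a floor of 3, and the upper limit of its 95% counting interval was a log2 of -2.31. Without genotype as a term the change was -1.92 with an adjusted p of 0.195 (edgeR), and it was -4.46 without the Eμ-deficient libraries, -1.81 without the wt ones (adjusted p = 0.0336, edgeR) and -2.08 without the 3′RR-deficient ones. The macrophage and monocyte markers fell with it, 9 of 9 passing the test with a median log2 fold change of -3.69, and 4 of them (C1qa, C1qb, C1qc and Fcgr1) were at or under 3 counts in the wt and 3′RR-deficient LPS-stimulated libraries. Their part in the Cd14 result was not tested. In bulk RNA, fewer cells of a type and less RNA per cell cannot be told apart.

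Of the genes of the RP105 complex, Cd180 fell and Ly86 did not pass the test. Cd180 had 103.9, 143.6 and 114.0 CPM in resting wt, Eμ-deficient and 3′RR-deficient B-cells and 62.9, 54.2 and 49.2 CPM after LPS. No LPS-stimulated library reached a resting one, and the fitted log2 fold change was -1.11 ± 0.24 (adjusted p = 0.00648, edgeR), which is 2.16-fold lower. Without the Eμ-deficient libraries it was -0.88 with an adjusted p of 0.137. Ly86, which RP105 needs to reach the cell surface, had 55.7, 49.9 and 57.9 CPM resting and 44.9, 39.4 and 49.3 CPM after LPS. The highest LPS-stimulated level lay just under the lowest resting one, and the log2 fold change of -0.29 ± 0.21 did not pass the test (adjusted p = 0.294, edgeR). The Cd180 to Ly86 ratio of counts per kb went from 1.504, 2.32 and 1.58 to 1.13, 1.11 and 0.804 in the 3 genotypes. Of the B-cell markers, 1 of 5 fell (Cd22, -0.81), and 4 of 5 markers of marginal zone B-cells fell (Cr2, Cd1d1, S1pr3 and Dtx1), from a summed level of 633.8 to 1113 CPM resting to 185.0 to 225.5 CPM after LPS. Fcer2a, the marker of follicular B-cells, fell as well (-1.19). It went from 118.6, 64.2 and 226.1 CPM in resting wt, Eμ-deficient and 3′RR-deficient B-cells to 58.3, 34.0 and 72.7 CPM after LPS. The part of marginal zone or follicular cells in the fall of Cd180 was not tested.

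Of the lipopeptide receptors, Tlr1 fell and Tlr2 did not pass the test. Tlr1 had 52.9, 71.1 and 80.8 CPM in resting wt, Eμ-deficient and 3′RR-deficient B-cells and 47.6, 35.7 and 28.6 CPM after LPS. The groups did not overlap, but the wt libraries differed little, with a log2 ratio of -0.15 (95% counting interval -0.28 to -0.02) against -0.99 in Eμ-deficient and -1.50 in 3′RR-deficient B-cells. The fitted log2 fold change was -0.88 ± 0.29 (adjusted p = 0.0366, edgeR). It was -0.58 (adjusted p = 0.204) without the 3′RR-deficient libraries and -0.73 (adjusted p = 0.224) without the Eμ-deficient ones. Tlr2, the shared subunit of the TLR1 and TLR6 heterodimers, had 4.02, 7.87 and 4.91 CPM resting and 2.20, 5.34 and 2.92 CPM after LPS. It was lower after LPS in 3 of 3 genotypes while the groups overlapped, with a log2 fold change of -0.72 ± 0.30 (adjusted p = 0.0851, edgeR). With the GC trend removed it passed the test (-0.72, adjusted p = 0.0453).

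Of the endosomal receptors, Tlr9 fell and Tlr7 did not pass the test. Tlr9 had 62.0, 36.0 and 55.1 CPM in resting wt, Eμ-deficient and 3′RR-deficient B-cells and 13.0, 24.9 and 34.0 CPM after LPS. All LPS-stimulated libraries lay below all resting ones, and the log2 fold change was -1.15 ± 0.35 (adjusted p = 0.0261, edgeR), which is 2.22-fold lower. The wt pair differed most, with a log2 ratio of -2.25 (95% counting interval -2.45 to -2.06) against -0.53 in Eμ-deficient and -0.70 in 3′RR-deficient B-cells. With the GC trend removed these ratios were -1.76, -0.52 and -0.80, and without the wt libraries the fitted change was -0.59 (adjusted p = 0.0215). The call for Tlr9 was made under each of the 11 alternatives tried. Tlr7, by contrast, had 33.3, 50.2 and 29.0 CPM resting and 27.2, 78.9 and 16.8 CPM after LPS. It was higher after LPS in Eμ-deficient B-cells and lower in both others, and the fitted change was -0.13 ± 0.29 (adjusted p = 0.743, edgeR).

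Myd88 had 18.6, 17.2 and 18.6 CPM in resting wt, Eμ-deficient and 3′RR-deficient B-cells and 22.9, 27.9 and 26.3 CPM after LPS. All 3 LPS-stimulated levels were above all 3 resting ones. The log2 fold change of 0.50 ± 0.23 did not pass the test (adjusted p = 0.109, edgeR), and it did with the GC trend removed (0.57, adjusted p = 0.0230) and without the wt libraries (0.62, adjusted p = 0.0254). The ratio within wt fell from a log2 of 0.30 to 0.05 when libraries were scaled by total counts, which shifts every wt ratio of LPS over resting by -0.25.

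**Figure D2:**
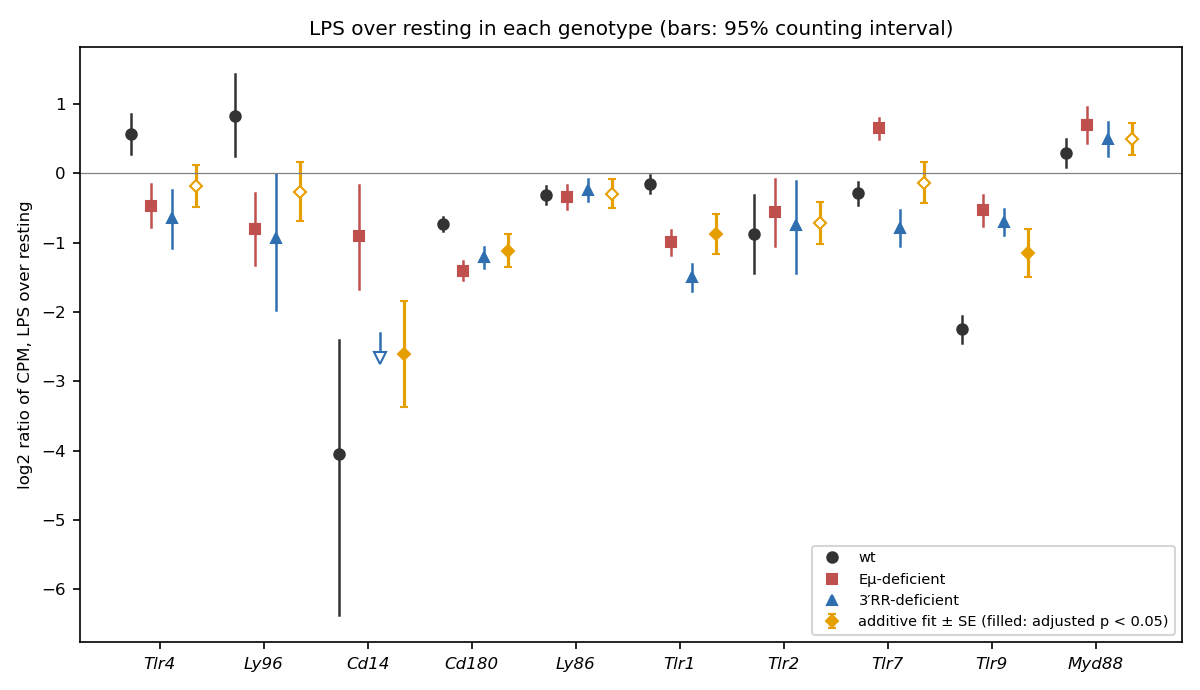
Log2 ratio of CPM, LPS over resting, for each gene in the wt, Eμ-deficient and 3′RR-deficient pair of libraries (bars, 95% counting interval), with the additive fit and its SE as diamonds, filled where the adjusted p is under 0.05. The open triangle for Cd14 marks 0 counts after LPS, set at a floor of 3 counts, with its line ending at the upper limit. Cd180, Tlr1, Tlr9 and Cd14 are called lower.

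In single pairs of libraries the counts past 2-fold were small. In wt B-cells, 2 of the 10 genes (Cd14 and Tlr9) were more than 2-fold lower after LPS, where 46.8% of all genes were past 2-fold in either direction. In Eμ-deficient B-cells 1 gene was (Cd180, where 37.2% of all genes were), and in 3′RR-deficient B-cells 3 were (Cd14, Cd180 and Tlr1, where 39.2% of all genes were). No member was more than 2-fold higher after LPS in any genotype.

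The ratio of paired genes within a library depends on no scaling between libraries. RP105 mRNA exceeded Tlr4 mRNA in each library, with Cd180 to Tlr4 ratios of counts per kb of 14.8, 9.58 and 12.5 in resting wt, Eμ-deficient and 3′RR-deficient B-cells and 6.07, 4.99 and 8.43 after LPS. The 3 resting ratios lay above the 3 LPS-stimulated ones, also with the GC trend removed (10.97 to 13.8 against 5.21 to 7.24). The Ly86 to Ly96 ratio was 7.49, 1.83 and 6.32 resting and 3.39, 2.52 and 10.3 after LPS. It was lowest in both Eμ-deficient libraries, where resting Ly96 was high, and the states overlapped. After LPS the Eμ-deficient interval overlapped that of wt (1.86 to 3.48 and 2.69 to 4.32), so this order was not beyond counting error there. Tlr1 exceeded Tlr2 in each library, by 11.9, 8.14 and 14.8 resting and 19.5, 6.02 and 8.83 after LPS, again lowest in both Eμ-deficient libraries. This order was beyond counting error only in part. In resting B-cells the Eμ-deficient interval overlapped that of wt (6.64 to 10.1 and 9.34 to 15.3) and lay below that of 3′RR-deficient B-cells (12.1 to 18.3). After LPS it overlapped that of 3′RR-deficient B-cells (4.55 to 8.10 and 5.89 to 13.8) and lay below that of wt (14.5 to 26.8). The Tlr9 to Tlr7 ratio was 2.19, 0.841 and 2.23 resting and 0.562, 0.371 and 2.37 after LPS. The balance as measured thus lay with Tlr9 in resting wt and both 3′RR-deficient libraries, and with Tlr7 in LPS-stimulated wt and both Eμ-deficient libraries. Tlr9 has the highest GC content of the 10 genes (56.2%) and Tlr7 one of the lowest (41.0%), and with the GC trend removed the ratios were 1.71, 1.07 and 1.97 resting and 0.861, 0.447 and 1.504 after LPS. The order of the genotypes within each state was unchanged by that step, but the resting Eμ-deficient ratio moved to the other side of 1.

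**Figure D3:**
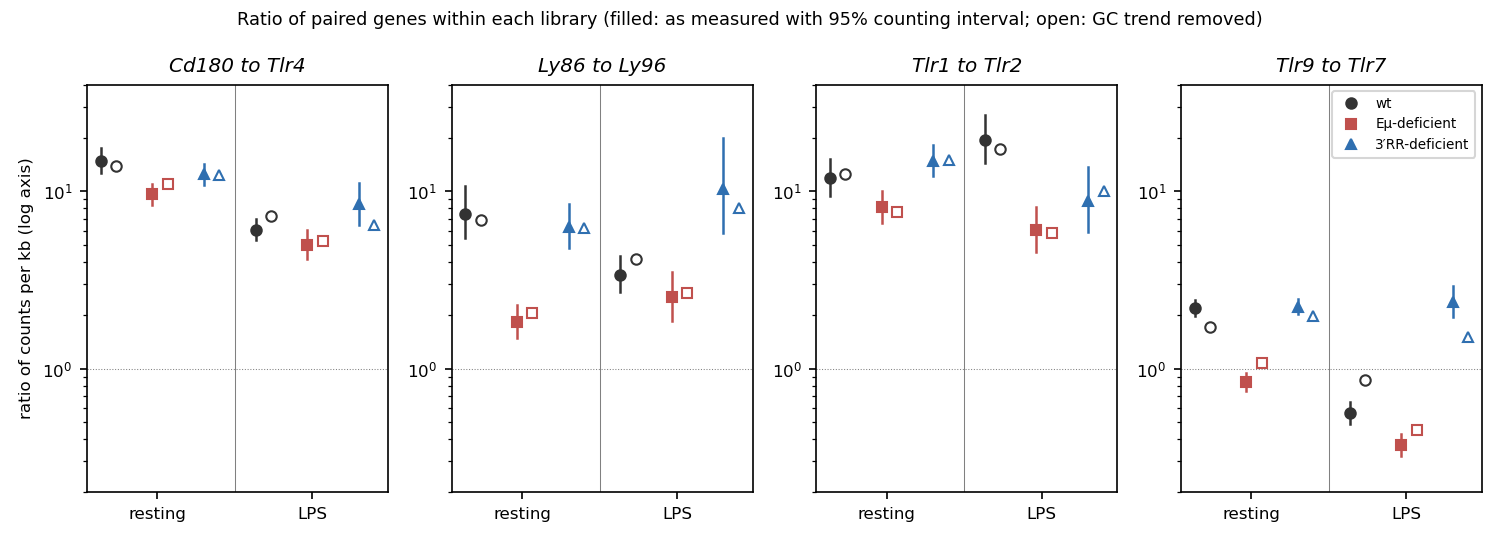
Ratio of counts per kb of exon (log axis) for 4 pairs of genes within each of the 6 libraries, filled with the 95% counting interval as measured and open with the GC trend removed. The dotted line marks equal levels. Cd180 to Tlr4 ratios are higher in the 3 resting libraries (9.58 to 14.8) than in the 3 LPS-stimulated ones (4.99 to 8.43), and Tlr9 to Tlr7 is lowest in Eμ-deficient B-cells in each state.

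The last question was whether the genes differed between the mutants and wt. In the additive fit over both states, 0 of 10 genes were called for Eμ-deficient against wt, where 1.16% of all genes were, and 0 of 10 for 3′RR-deficient against wt, where 0.678% were. DESeq2 called 0 for either contrast as well. At an unadjusted p under 0.05 there were 3 genes for the Eμ deletion, where 8.68% of all genes were, and 0 for the 3′RR deletion, where 5.69% were. The 3 were Tlr7, Tlr2 and Cd14, all higher in Eμ-deficient B-cells. These counts depend on the LPS-stimulated wt library. Without it, a setting chosen after the data were seen in which wt has its resting library alone and that library is assumed to vary like the others, 2 genes were called for the Eμ deletion (Tlr4 and Ly96, both higher), 0 for the 3′RR deletion, and 1230 genes in all for the Eμ deletion in place of 170.

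Tlr7 was higher than in wt in both Eμ-deficient libraries, by a log2 ratio of 0.59 resting and 1.53 after LPS (95% counting interval 1.38 to 1.69). The latter is 2.89-fold. With the GC trend removed the ratios were 0.26 and 1.76. The fit gave 1.11 ± 0.36 (adjusted p = 0.277, edgeR). Tlr2 was higher by 0.97 resting and 1.28 after LPS, and the fit gave 1.12 ± 0.37 (adjusted p = 0.289, edgeR). Cd14 was higher by 0.76 resting and 3.91 after LPS, the latter against 3 counts in wt (95% counting interval 2.18 to 6.29), and the fit gave 2.04 ± 0.86 (adjusted p = 0.533, edgeR). It was called with no filter on low counts (1.97, adjusted p = 0.0348). Macrophage and monocyte markers were higher in Eμ-deficient B-cells as well, with a median log2 fold change of 1.88 and 0 of 9 called, and 7 of 9 had an unadjusted p under 0.05. After LPS these markers summed to 39.9 CPM in Eμ-deficient and 25.6 CPM in wt B-cells, and among them Itgam was lower (5.62 against 9.99 CPM). The plasmablast markers, mostly Jchain in the Eμ-deficient library, summed to 1223 and 313.6 CPM in the same pair. The part of either cell type in these 3 results was not tested.

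Tlr4 and Ly96 differed from wt in resting Eμ-deficient B-cells, with log2 ratios of 1.10 and 1.87 (95% counting intervals 0.80 to 1.39 and 1.32 to 2.45), and not beyond counting error after LPS, with 0.07 (-0.23 to 0.37) and 0.24 (-0.31 to 0.78). With the GC trend removed the resting ratios were 0.69 and 1.54. Over both states the fit gave 0.54 ± 0.37 for Tlr4 and 0.98 ± 0.50 for Ly96, with adjusted p-values of 0.910 and 0.715 (edgeR). Without the LPS-stimulated wt library the fit gave 1.14 and 1.89. These values rest on the resting wt library alone, as the resting ratios do, and are no check on those ratios. Macrophage and monocyte markers differed in the same resting pair, with a sum of 536.4 CPM in Eμ-deficient against 199.6 CPM in wt B-cells, as did dendritic cell markers (144.1 against 67.6 CPM). Markers of B-cell subsets differed there too. Marginal zone markers summed to 1113 against 753.4 CPM, although Dtx1 was lower (203.8 against 266.2 CPM), and plasmablast markers to 1866 against 174.1 CPM. Fcer2a, the follicular marker, was lower (64.2 against 118.6 CPM), and the study cites an earlier report that this model lacks follicular B-cells. The part of any of these cell types was not tested. Tlr9 was lower than wt in resting Eμ-deficient B-cells (-0.78) and higher after LPS (0.93). Cd180, Ly86, Tlr1 and Myd88 stayed within 0.47 of wt on the log2 scale in both states. Past 2-fold were 2 of 10 genes in the resting pair (Tlr4 and Ly96), as were 18.4% of all genes, and 3 of 10 in the LPS-stimulated pair (Cd14, Tlr2 and Tlr7), as were 13% of all genes.

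In resting 3′RR-deficient B-cells 0 of 10 genes were past 2-fold from wt, where 9.37% of all genes were, and the log2 ratios ran from -0.20 (Tlr7) to 0.61 (Tlr1, 95% counting interval 0.50 to 0.73). In the LPS-stimulated pair, where both libraries stood apart in composition, 2 of 9 genes were past 2-fold, where 23.6% of all genes were. Ly96 was lower (-1.47) and Tlr9 was higher (1.38, 95% counting interval 1.14 to 1.62). Cd14 had 0 and 3 counts in this pair and gave no ratio. With the GC trend removed 0 of 9 genes were past 2-fold, with Ly96 at -0.74 and Tlr9 at 0.86. The ratios of the AT-rich genes Tlr4 and Tlr7 moved from -0.83 and -0.69 to 0.06 and 0.05. Over both states, the fitted changes ran from -0.60 (Ly96) to 0.51 (Tlr9), with adjusted p-values of 0.914 to 0.985 (edgeR). Without the LPS-stimulated 3′RR-deficient library 0 genes were called and the fitted change of Tlr9 was 0.19. Without the LPS-stimulated wt library it was -0.21, and that of Ly96 was 0.27.

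**Figure D4:**
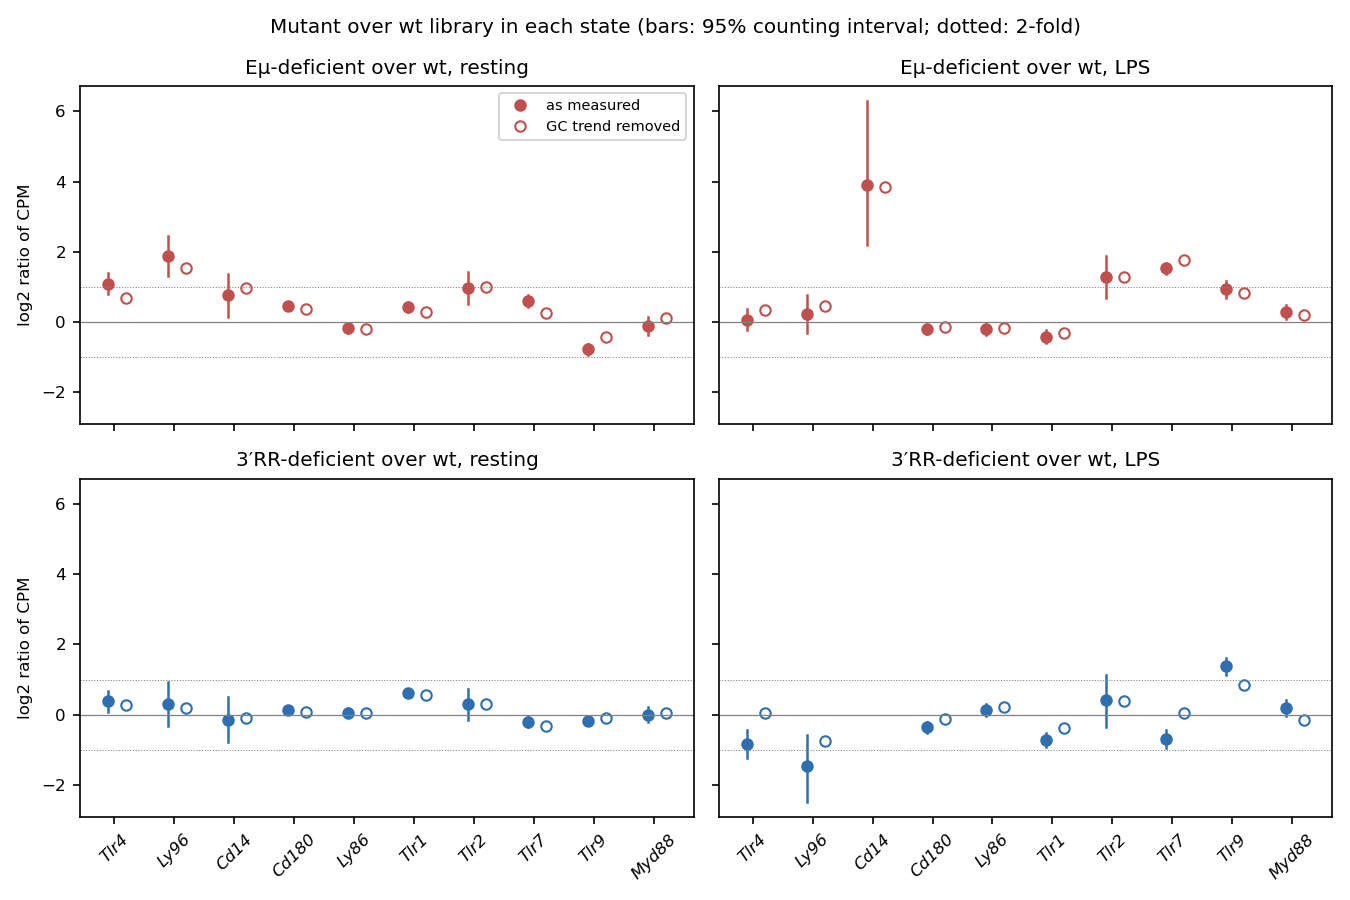
Log2 ratio of CPM of each mutant library over the wt library of the same state, filled as measured with the 95% counting interval and open with the GC trend removed; dotted lines mark 2-fold. Cd14 has no point in the last panel, where both libraries had 3 counts or fewer. Ratios of resting 3′RR-deficient B-cells stay between -0.20 and 0.61, and those of Ly96 (-1.47) and Tlr9 (1.38) after LPS come within 2-fold once the GC trend is removed.

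The other genes of the pathway were read from 6 lists of 50 genes, of which 49 were tested. With LPS, 5 rose and 22 fell, so that 55.1% were called against 40.8% of all genes. All 7 other TLR genes fell. Tlr3, a receptor for double-stranded RNA, fell by 3.12 on the log2 scale. The log2 fold changes were -4.04 for Tlr13, -4.69 for Tlr8 and -2.96 for Tlr5, and -1.32 for both Tlr6 and Tlr12. Tlr11 went from 194 counts in the 3 resting libraries to 0 in the 3 LPS-stimulated ones. This is 50.4-fold lower with the 0 set to a floor of 3 counts over the group. Tlr5, Tlr8, Tlr11 and Tlr13 had 5.45 CPM or less in the resting libraries, except for Tlr13 in Eμ-deficient B-cells at 12.3 CPM. Markers of other cell types fell beside them. The median log2 fold change was -3.69 for macrophage and monocyte markers (9 of 9 fell), -3.43 for neutrophil markers (4 of 4 tested), -3.16 for dendritic cell markers (4 of 5) and -3.06 for T and NK cell markers (5 of 6). Summed levels of neutrophil markers went from 7.26 to 18.6 CPM in resting to 3.09 CPM or less in LPS-stimulated libraries, and those of T and NK cell markers from 15.8 to 32.5 CPM to 4.68 CPM or less. Their part in the fall of these receptor genes was not tested.

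Of the 6 tested genes that fold, carry or scaffold TLRs, 2 rose. Hsp90b1, the endoplasmic reticulum chaperone gp96 that folds TLRs, went from 162.5, 263.5 and 200.6 CPM resting to 879.8, 1134 and 572.3 CPM after LPS (log2 fold change 2.02 ± 0.30, adjusted p = 0.000954, edgeR). Cnpy4 rose by 0.80. Slc15a4, an endolysosomal transporter needed for endosomal TLR signalling, fell by 1.36 on the log2 scale, and Scimp, an adaptor for TLR4, had a log2 fold change of -1.47 and fell as well. Unc93b1, which carries TLR7 and TLR9 to endosomes, had a log2 fold change of -0.65 and did not pass the test (adjusted p = 0.0909, edgeR). Among the other TIR adaptors Ticam1 (TRIF, 0.98), Ticam2 (TRAM, 1.86) and Tirap (0.94) rose and Pik3ap1 (BCAP) fell by 1.14. Ticam2, which links TLR4 to TRIF, went from 1.49, 3.56 and 3.16 CPM resting to 10.9, 7.49 and 10.1 CPM after LPS.

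Of 19 genes that act downstream of the adaptors MYD88 or TRIF, 6 fell and 0 rose, so that 31.6% were called, against 40.8% of all genes. By direction, 21.1% of all genes fell and 19.7% rose. The 3 with the largest changes were the kinase genes Ikbkb (-1.26), Map3k8 (-1.13) and Irak2 (-1.01). Of 7 inhibitors of the pathway, 4 fell (57.1%), with log2 fold changes of -2.13 for Dok3, -1.83 for Tnfaip3, -1.16 for Irak3 and -0.81 for Rnf216. Tnfaip3, the ubiquitin-editing enzyme A20, had 184.3, 205.0 and 199.5 CPM resting and 50.2, 56.3 and 59.3 CPM after LPS. Of 5 sensors of bacterial products inside the cell, 40% fell, namely Nod1 (-3.04) and Nlrp3 (-7.39), the latter with 0 to 3 counts after LPS. In the additive fit 0 of the 49 genes were called for either enhancer deletion, and 5 had an unadjusted p under 0.05 for the Eμ deletion (10.2%, against 8.68% of all genes) and 1 for the 3′RR deletion (2.04%, against 5.69%).

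**Figure D5:**
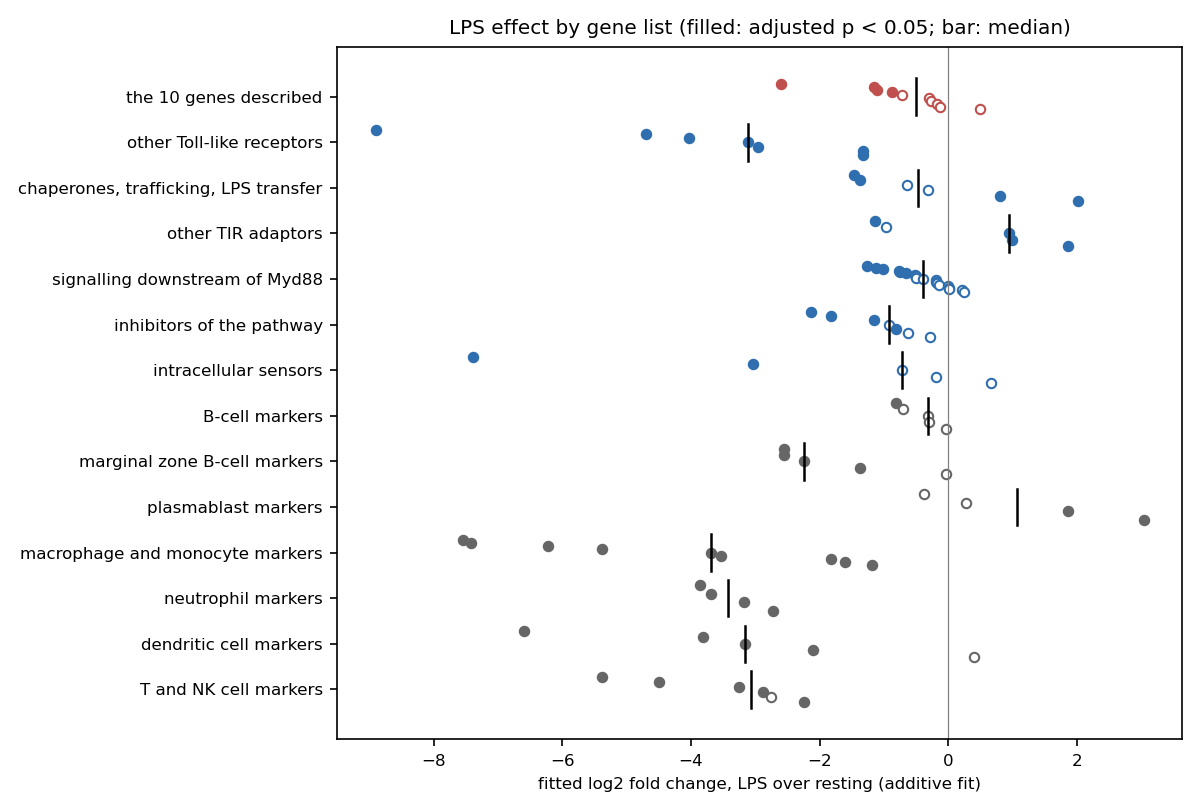
Fitted log2 fold change, LPS over resting, of each gene in the lists of TLR and LPS sensing genes (red), of other genes of the pathway (blue) and of cell type markers (grey), filled where the adjusted p is under 0.05, with the median of each list as a bar. The point at the far left is Tlr11, which had 0 counts in all LPS-stimulated libraries, so that its fitted value is not a bound. The 10 described genes centre on -0.51, the 7 other TLR genes on -3.12 and the macrophage and monocyte markers on -3.69.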

How the data were processed

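RNA of CD43-depleted splenic B-cells was sequenced from 6 libraries, 1 per genotype and state, each from 2 pooled mice. Per the labels and the study's methods, the authors made stranded total RNA libraries after removal of ribosomal RNA, aligned reads to mm10 with STAR 2.4.0a and counted them per gene name with featureCounts (Subread 1.4.6-p1). The deposited values are raw counts. The reference genome is of another strain than these mice, and its effect on the counts was not assessed.

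The 92 spike-in names took 4.75% to 7.10% of the counts and entered neither library sizes nor tests. The 14600 genes that reached 10 counts in 2 or more libraries were fitted with edgeR 4.0.16 (R 4.3.3, TMM factors, quasi-likelihood test, genotype and state as additive terms, 2 residual degrees of freedom, Benjamini-Hochberg adjustment, threshold 0.05). Single pairs of libraries were compared by log2 ratios of CPM with exact conditional binomial (Clopper-Pearson) 95% intervals from scipy 1.17.1, which cover counting error only, as amplified reads are not independent molecules, and a floor of 3 counts. The study's methods describe splenocytes of the same mice before and after stimulation, which the labels do not state. Alternatives were DESeq2 1.42.0 size factors and Wald test, total counts, TMM without immunoglobulin genes, filters of 0 and 50 counts, removal of the trend on exon GC content, no genotype term, log2(CPM + 1) and leaving out each genotype or the LPS-stimulated 3′RR-deficient library. Leaving out the LPS-stimulated wt library was added after the data were seen. Of the gene names, 44131 were found in GENCODE M21.

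The genes, the lists and the tests were chosen with earlier results of these data known. The 10 genes are described in full. Pathway genes are named where called in a list of up to 7 genes, or as the 3 largest called changes of a longer list. Markers are given as summed levels and counts. A further B-cell marker gene was left out of its list and is not reported here.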

Additional observations from a re-analysis of the deposited data

Results flagged for a closer look

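Several genes had log2 ratios of opposite sign in 2 comparisons of the same kind, each from 1 pair of libraries, and none of these differences was tested. They are given as the second ratio minus the first, with the value after removal of the GC trend.

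From resting to LPS, Tlr4 rose in wt and fell in both mutants, a difference of -1.03 for Eμ-deficient (-0.36 with the GC trend removed) and of -1.21 for 3′RR-deficient B-cells (-0.20). Ly96 did the same, with -1.63 (-1.07) and -1.77 (-0.93). Tlr7 was lower after LPS in wt and higher in Eμ-deficient B-cells, a difference of 0.94 (1.51 with the GC trend removed), and lower again in 3′RR-deficient B-cells, -1.43 from the Eμ-deficient ratio (-1.15).

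Ratios of mutant over wt also changed sign between the states. For the 3′RR deletion, Tlr4 was above wt resting and below it after LPS (-1.21, or -0.20 with the GC trend removed, where both ratios were above wt, at 0.26 and 0.06). Cd180 went from above to below wt in Eμ-deficient (-0.68, or -0.50) and 3′RR-deficient B-cells (-0.49, or -0.20). Tlr1 did so as well, by -0.84 (-0.58) and -1.34 (-0.95). Tlr9 went from below to above wt, by 1.72 (1.24) for the Eμ deletion and 1.55 (0.96) for the 3′RR deletion. Comparisons of both mutants share the wt libraries, and each rests on 1 library per genotype and state. With the GC trend removed the signs stayed opposite in the other 12 of these 13 differences, although the wt ratio of Tlr4 was then 0.04.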

How the results depend on the processing

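Of the 10 genes, 4 were called for LPS in the reported fit, and the count ran from 2 to 5 when a genotype was left out (2 without the Eμ-deficient libraries, where Cd180 and Tlr1 were lost, and 5 without the wt ones, where Myd88 was added). It was 6 with the GC trend removed. Cd180 was called under 10 of 11 alternatives, Tlr1 under 9 of 11, Tlr9 under 11 of 11 and Cd14 under 9 of 10, since a filter of 50 counts leaves Cd14 untested. For the Eμ deletion the count was 0, 1 with no filter on low counts (Cd14) and 0 to 2 with libraries left out (2, Tlr4 and Ly96, without the LPS-stimulated wt library, a setting added after the data were seen).

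Past 2-fold between single libraries, the count for LPS in Eμ-deficient B-cells went from 1 to 2 with total counts and with DESeq2 size factors (Tlr1 added), and that in wt from 2 to 3 with total counts (Tlr2 added). The count for resting Eμ-deficient over wt went from 2 to 1 with total counts and with the GC trend removed (Tlr4 lost), that for LPS-stimulated Eμ-deficient over wt from 3 to 2 with log2(CPM + 1) (Tlr2 lost), and that for LPS-stimulated 3′RR-deficient over wt from 2 to 0 with the GC trend removed.

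Fitted values that changed sign were uncalled in both fits. For LPS, leaving out a genotype gave -0.53 to 0.064 for Tlr4, -0.83 to 0.12 for Ly96 and -0.44 to 0.17 for Tlr7, and Tlr7 was 0.13 without the genotype term. For the Eμ deletion, Tlr9 was 0.024 with a filter of 50 counts and 0.16 with the GC trend removed, and leaving out the 3′RR-deficient libraries or the LPS-stimulated wt one gave -0.75 to 0.059 for Tlr9, 0.010 to 0.55 for Tlr1 and -0.068 to 0.086 for Myd88. For the 3′RR deletion, Tlr4 was 0.16, Tlr1 0.088 and Myd88 -0.051 with the GC trend removed. Leaving out the Eμ-deficient libraries or 1 of the LPS-stimulated 3′RR-deficient and wt libraries gave -0.25 to 0.34 for Tlr4, -0.56 to 0.27 for Ly96, -0.54 to 0.33 for Cd14, -0.15 to 0.18 for Cd180, -0.093 to 0.49 for Tlr1, -0.51 to 0.019 for Tlr7, -0.21 to 0.55 for Tlr9 and -0.056 to 0.094 for Myd88. The cause of these changes was not tested.

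Over all genes, 5962 were called for LPS (3960 without the Eμ-deficient libraries). For the Eμ deletion 170 were called (340 with DESeq2, 605 with no filter, 393 without the 3′RR-deficient libraries and 1230 without the LPS-stimulated wt one), and for the 3′RR deletion 99 (178 with DESeq2, 339 with no filter, 177 without the Eμ-deficient libraries and 228 without the LPS-stimulated wt one). Scaling by total counts shifted ratios by -0.25 for LPS over resting in wt, and by -0.20 and -0.19 for resting Eμ-deficient and 3′RR-deficient over wt. The labels carry no replicate numbers. The reported fit pairs each resting library with the LPS-stimulated one of its genotype through the genotype term, and without that pairing 3 of the 10 genes were called (Cd14 lost, adjusted p = 0.195, edgeR). Depth limits Cd14, Ly96 and Tlr2 most, with 104 counts or fewer in each library.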

Other observations

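Irf7, an interferon-responsive gene that acts downstream of TLR7 and TLR9 and was chosen here after its values were seen, had 38.7, 16.9 and 25.5 CPM in resting wt, Eμ-deficient and 3′RR-deficient B-cells and 5.35, 76.99 and 31.5 CPM after LPS. Like Tlr7 it was highest in the LPS-stimulated Eμ-deficient library, with no test within a state. Its fitted change for LPS was -0.01 ± 0.79 (adjusted p = 0.994, edgeR).

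Spn, the gene of the CD43 protein against which the cells were depleted, had 14.0, 10.1 and 17.2 CPM in resting and 20.0, 40.4 and 90.1 CPM in LPS-stimulated wt, Eμ-deficient and 3′RR-deficient B-cells. It rose with LPS by 1.65 ± 0.36 on the log2 scale (adjusted p = 0.00659, edgeR).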
